A study of Mus musculus with 6 samples.

Results

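The neutrophil granule genes described here are 8 genes chosen by name, 4 of the primary granules (Mpo, Elane, Prtn3 and Ctsg) and 4 of the secondary granules (Camp, Ngp, Ltf and Lcn2). Each symbol matched 1 of the 25955 entries of the deposited expression table, and all 8 were among the 11741 genes that passed the filter on low values. The genes were picked by their known role, with earlier results of these data in view. The table holds bulk RNA profiles of 2 sorted populations of C57BL/6 mouse marrow, with 3 libraries of CD44+CD51- TNCs and 3 of CD51+ TNCs, numbered 1 to 3 in each group. The labels describe the tissue as enzyme-digested bone marrow and give no age, treatment or count of animals, so a p here speaks of the spread among these libraries alone, which may be technical. CD51 is the integrin alpha V chain (gene Itgav), and CD44 binds hyaluronan. TNC is not spelled out in the labels, and elsewhere the term stands for marrow cells negative for CD45, CD31 and a red cell antigen. Levels are the authors' RPKM, reads of a gene scaled to its length and to library size, so levels of different genes can be set side by side. A log2 change is CD51+ minus CD44+CD51- of log2(RPKM + 1) and comes with an adjusted p from limma, called where it is under 0.05. The libraries are not paired in this fit, unless a replicate block is named.

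Neutrophils fill their granules in an order set by the stage at which each protein is made. Primary, or azurophil, granules form in promyelocytes and hold myeloperoxidase and the serine proteases, while secondary, or specific, granules form later, in myelocytes and metamyelocytes, and hold lactoferrin, lipocalin and the cathelicidin. The transcripts of the primary class fade as the cell moves on, and mature neutrophils carry little of either class of RNA although the proteins stay stored. In marrow, PU.1, C/EBP alpha, MYB and RUNX1 are known regulators of the primary genes, and C/EBP epsilon of the secondary genes.

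The promoters are shown because the 2 classes differ in the letters found just before their RefSeq start sites. The windows run from 250 bases before to 50 bases after the RefSeq start on GRCm38.p6, in the direction of transcription, and all 8 members had 1. The letters AGGAAGT, the sequence type bound by PU.1 and other ETS factors, stood in the windows of all 4 primary genes and of 0 of the 4 secondary genes, on either strand, against 9.35% of 32851 mouse promoter windows. The motifs were picked after the windows had been read. In full, Elane (chr10:79886062-79886361, plus strand) and its neighbour Prtn3 (chr10:79879417-79879716, plus strand) also held AACGG, the core of MYB sites, and Ngp (chr9:110419558-110419857, plus strand) held TTGCNNAA, a C/EBP-type sequence. Capitals mark AGGAAGT and AACGG in Elane and Prtn3 and the C/EBP-type letters, on either strand, in Ngp.
Elane: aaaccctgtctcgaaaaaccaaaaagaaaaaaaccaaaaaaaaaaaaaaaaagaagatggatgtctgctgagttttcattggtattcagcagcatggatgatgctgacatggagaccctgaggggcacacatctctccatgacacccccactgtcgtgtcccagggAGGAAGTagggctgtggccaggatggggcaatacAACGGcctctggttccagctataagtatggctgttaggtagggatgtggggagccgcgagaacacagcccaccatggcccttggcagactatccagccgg
Prtn3: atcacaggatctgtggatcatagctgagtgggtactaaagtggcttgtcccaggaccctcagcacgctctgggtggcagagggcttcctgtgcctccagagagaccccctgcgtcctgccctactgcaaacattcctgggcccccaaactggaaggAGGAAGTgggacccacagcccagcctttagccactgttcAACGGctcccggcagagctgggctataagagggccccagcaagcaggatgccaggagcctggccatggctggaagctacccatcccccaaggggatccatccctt
Ngp: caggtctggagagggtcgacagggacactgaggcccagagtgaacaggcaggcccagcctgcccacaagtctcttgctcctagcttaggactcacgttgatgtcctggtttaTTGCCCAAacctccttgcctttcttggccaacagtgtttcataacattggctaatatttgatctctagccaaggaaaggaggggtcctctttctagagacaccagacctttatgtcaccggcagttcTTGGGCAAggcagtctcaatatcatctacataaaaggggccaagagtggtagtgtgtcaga

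In Elane the AGGAAGT began 84 bases before the start and the AACGG 50 bases before it. In Prtn3 the distances were 94 and 55 bases, so both genes had the same pair in the same order. The C/EBP-type letters in Ngp began 138 and 11 bases before the start. All distances are from the RefSeq start, and the GENCODE M21 gene positions given below begin further upstream for some members. The windows of Prtn3 and Lcn2 lie wholly inside those positions. So do the AACGG of Elane and the C/EBP-type letters of Ngp nearer its start. For the other members that held either motif, 31 bases around it are shown, with AGGAAGT in capitals for Mpo (chr11:87793549-87793579, plus strand) and Ctsg (chr14:56102762-56102792, minus strand), and the C/EBP-type letters in capitals for Ltf (chr9:111019205-111019235, plus strand) and Lcn2 (chr2:32387937-32387967, minus strand).
Mpo: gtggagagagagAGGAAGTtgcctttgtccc
Ctsg: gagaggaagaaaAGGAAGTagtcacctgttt
Ltf: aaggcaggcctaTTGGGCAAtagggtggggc
Lcn2: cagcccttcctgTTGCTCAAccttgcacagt

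TTGCNNAA was found for 3 of 4 secondary genes, not for Camp, and for 0 of 4 primary genes, against 10.8% of all windows. AACGG was found for 2 primary and 0 secondary genes, against 17.4% of all windows. The RUNX-type letters TGTGGT were found for Ctsg and Ltf, against 16.8%, and TATAAA for Ctsg, against 13.6%. Both strands were searched, and no match shown overlapped another. A match describes letters only, and a missing match says only that these letters are not in this window.

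All 8 granule genes were higher in CD51+ cells than in CD44+CD51- cells. The 4 primary genes rose by log2 changes of 2.05 to 2.15 and the 4 secondary genes by 2.61 to 2.71, where the median over all tested genes was -0.23. Of all genes tested, 24.1% were called higher, 29.7% lower and 53.7% in either direction. For each of the 8 the lowest CD51+ library stood above the highest CD44+CD51- library, as it did for 26.1% of all genes tested. In bulk RNA, fewer granule-making cells and less granule RNA per cell cannot be told apart.

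**Figure D1:**
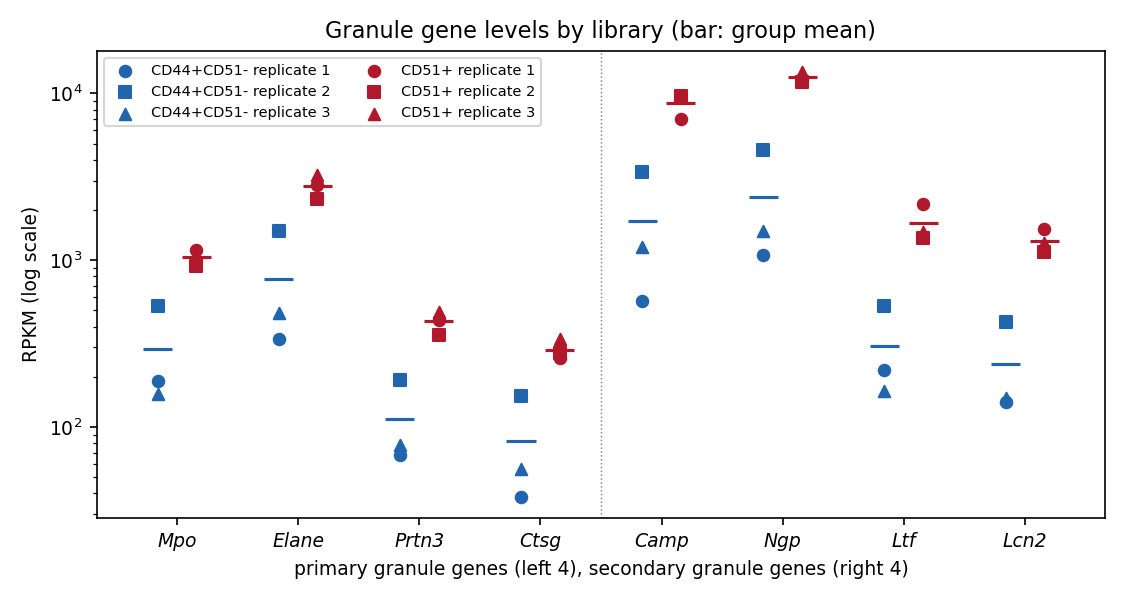
RPKM on a log axis of the 8 granule genes in each of the 6 libraries, with blue points for CD44+CD51-, red points for CD51+ and a bar at each group mean. The 3 CD51+ libraries lie above the 3 CD44+CD51- libraries for every gene, and CD44+CD51- replicate 2 (square) is the highest of its group throughout.

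Among the primary genes, Elane had the highest level. Gene positions are from GENCODE M21 on GRCm38, the build named by the submitters. Elane encodes neutrophil elastase, a serine protease that digests bacterial and matrix proteins, and lies on chromosome 10 at 79886247 to 79888215, plus strand. Its RPKM was 339, 1489 and 481 in CD44+CD51- replicates 1, 2 and 3, and 2818, 2326 and 3227 in the CD51+ replicates. The groups did not overlap, and the lowest CD51+ value was 1.56 times the highest CD44+CD51- value, the narrowest gap of the 8 genes. The log2 change was 2.15 ± 0.54 (SE, n = 3 per group, limma adjusted p = 0.0141), and leaving out CD44+CD51- replicate 3 raised the adjusted p above the threshold (to 0.0554, in a range of 0.000906 to 0.0554 over 13 alternatives).

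Mpo, which encodes the myeloperoxidase that makes hypochlorous acid, lies on chromosome 11 at 87793581 to 87804413, plus strand. Its RPKM was 189, 531 and 157 in CD44+CD51- cells and 1157, 920.2 and 1076 in CD51+ cells. Replicate 2 of the first group was again the one nearest to the second. Mpo rose by 2.05 ± 0.45 (SE, limma adjusted p = 0.00801).

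Prtn3 encodes proteinase 3, a close relative of elastase, and lies on chromosome 10 at 79874476 to 79883174, plus strand, only 3073 bases before Elane. Its RPKM was 67.6, 190.3 and 77.7 in CD44+CD51- cells and 440.0, 357 and 490.0 in CD51+ cells. It rose by 2.08 ± 0.39 (SE, limma adjusted p = 0.00425), and its groups stood apart.

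Ctsg encodes cathepsin G, a chymotrypsin-like protease that mast cells also make, and lies on chromosome 14 at 56099881 to 56102574, minus strand. It had the lowest level of the 8 genes, at 38.2, 154 and 55.6 RPKM in CD44+CD51- cells and 258, 279 and 335 in CD51+ cells. Its smallest value corresponded to an estimated 805 reads, for which counting error alone is 3.52%, far under the spread between libraries. Ctsg rose by 2.05 ± 0.47 (SE, limma adjusted p = 0.0101).

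The genes beside the protease genes did not all move one way. Ptbp1, the next coding gene on the Prtn3 side, was lower in CD51+ cells, at 132 ± 20.1 and 65.7 ± 9.02 RPKM in CD44+CD51- and CD51+ cells, and Cfd, on the Elane side, reached at most 2.93 in any library. Plppr3, which overlaps Prtn3 on the other strand, rose from 1.98 ± 1.05 to 11.3 ± 4.05 RPKM (log2 change 2.06, limma adjusted p = 0.00279). The library kit in its usual use does not keep strand, so reads of Prtn3 and Plppr3 are not told apart where they overlap. Mpo is overlapped by the annotated gene Gm11505, not analysed here. Mcpt8, the basophil protease gene next to Ctsg, rose from 1.52 ± 1.69 to 50.9 ± 44.9 RPKM (log2 change 4.02, limma adjusted p = 0.00751).

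The secondary genes included the 2 highest levels and had the larger log2 changes. Ngp, which encodes neutrophilic granule protein, a relative of the cathelicidins, lies on chromosome 9 at 110419747 to 110423012, plus strand. Its RPKM was 1071, 4582 and 1490.1 in CD44+CD51- cells and 12235, 11787 and 13457 in CD51+ cells. In CD51+ libraries it ranked between place 4 and place 8 of all entries by RPKM, and in CD44+CD51- libraries between 7 and 40. The log2 change was 2.68 ± 0.58 (SE, limma adjusted p = 0.00766).

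Camp encodes the mouse cathelicidin, the precursor of an antimicrobial peptide, and lies on chromosome 9 at 109847379 to 109849617, minus strand. Its RPKM was 565.5, 3398 and 1194 in CD44+CD51- cells and 7029, 9665 and 9580.4 in CD51+ cells. It varied most of the 8 within the CD44+CD51- group, where its coefficient of variation was 86.5%, and rose by 2.71 ± 0.65 (SE, limma adjusted p = 0.0112). Under quantile normalization the calls of Camp (log2 change 1.82, adjusted p = 0.0612) and Ngp (1.54, 0.0638) were lost. Over 13 alternatives the adjusted p ran from 0.00102 to 0.0612 for Camp and from 0.00109 to 0.0638 for Ngp.

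Ltf encodes lactoferrin, which binds iron, and lies on chromosome 9 at 111019271 to 111042767, plus strand. Its RPKM was 220.0, 530.4 and 164 in CD44+CD51- cells and 2167, 1365 and 1476 in CD51+ cells. It rose by 2.61 ± 0.45 (SE, limma adjusted p = 0.00304). Camp, Ngp and Ltf lie in this order along chromosome 9, with 570130 and 596259 bases between them, and coding genes with other patterns stand between, such as Klhl18 beside Ngp at 1.45 ± 0.320 and 1.53 ± 0.455 RPKM.

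Lcn2 encodes lipocalin 2, which binds bacterial siderophores and is known to be made also by bone-forming and fat cells, and lies on chromosome 2 at 32384633 to 32388252, minus strand. Its RPKM was 142, 427.5 and 148 in CD44+CD51- cells and 1535, 1127 and 1260.5 in CD51+ cells. Its groups were the furthest apart of the 8, with the lowest CD51+ value at 2.64 times the highest CD44+CD51- value. Lcn2 rose by 2.64 ± 0.44 (SE, limma adjusted p = 0.00263).

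**Figure D2:**
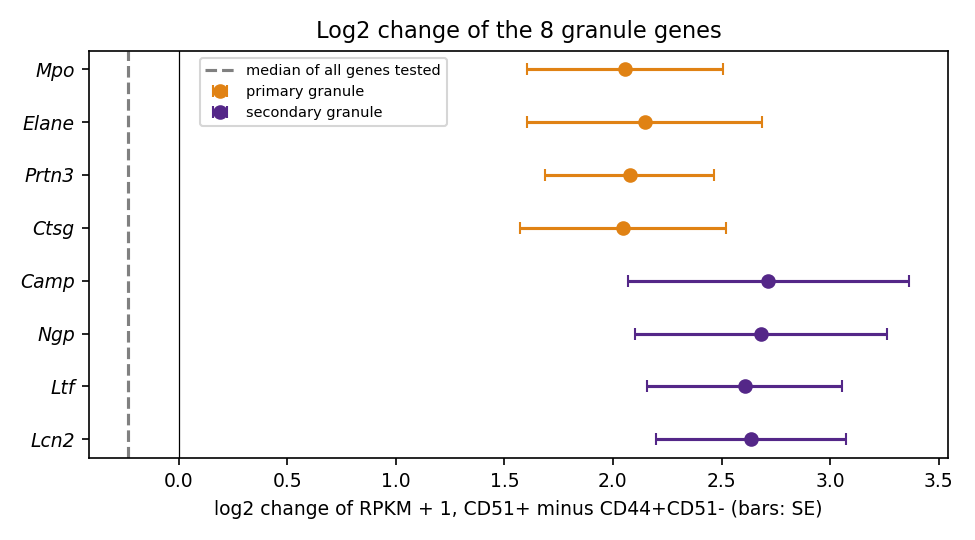
Log2 change of RPKM + 1, CD51+ minus CD44+CD51-, for the 8 granule genes, with bars of 1 SE and a dashed line at the median of all genes tested, -0.23. The 4 primary genes (orange) lie between 2.05 and 2.15 and the 4 secondary genes (purple) between 2.61 and 2.71, with bars that reach into each other.

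The order of the levels was nearly the same in both groups. Ngp was highest, followed by Camp, Elane and Ltf, and Prtn3 and Ctsg were lowest. Mpo and Lcn2 changed places, with Mpo at 293 ± 207 and Lcn2 at 239 ± 163 RPKM in CD44+CD51- cells, and Mpo at 1051 ± 120 and Lcn2 at 1308 ± 208 in CD51+ cells. Mpo stood above Lcn2 in each CD44+CD51- library, with log2 ratios of 0.417, 0.314 and 0.087, and below it in each CD51+ library, with log2 ratios of -0.408, -0.293 and -0.229. In CD51+ cells Ngp (12493 ± 864) and Camp (8758 ± 1498) were apart in every library, as were Camp and Elane (2790.3 ± 451), while Ltf (1669 ± 434) stood above Lcn2 in each library but by less than its own SD. Prtn3 (429 ± 67.0) stood above Ctsg (291 ± 40.1) in each CD51+ library.

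The 8 genes together made up 0.541%, 2.19% and 0.831% of the summed RPKM in CD44+CD51- replicates 1, 2 and 3, and 4.69%, 4.56% and 5.02% in the CD51+ replicates. The secondary genes held most of this, 4.003 ± 0.162% of the summed RPKM in CD51+ cells and 0.934 ± 0.701% in CD44+CD51- cells. The primary genes held 0.754 ± 0.104% and 0.253 ± 0.179%.

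The balance between the 4 secondary and the 4 primary members differed between the groups. The wider lists described below overlapped in their log2 changes. Other primary granule genes reached 3.99 (Cd63), and other secondary and tertiary granule genes went down to 1.21 (Hpse), with medians of 2.15 and 2.42. The balance was computed for the chosen members only, and whether it holds for the wider lists was not tested. The mean log2(RPKM + 1) of the 4 secondary genes exceeded that of the 4 primary genes by 1.70, 1.81 and 1.75 in CD44+CD51- replicates 1, 2 and 3, and by 2.40, 2.42 and 2.18 in the CD51+ replicates. The groups did not overlap, and CD44+CD51- replicate 2, although its granule levels were several times those of the other 2 libraries of its group, had a balance like theirs. The difference between the group means was 0.58 and is given without a test, because it is a score over chosen genes. A ratio between genes of 1 library does not depend on how libraries are scaled to each other, and the value was 0.58 under TMM as well. Quantile normalization, which gives each gene the value of its rank and so changes ratios within a library, brought it to 0.028.

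Ratios of pairs of members restate the same levels gene by gene. The log2 ratio of Elane to Ngp was -1.66, -1.62 and -1.63 in CD44+CD51- cells and -2.12, -2.34 and -2.06 in CD51+ cells, so the elastase transcript was lower relative to Ngp in each CD51+ library. Of 16 pairs that join a primary and a secondary gene, 10 had log2 ratios that did not overlap between the groups. Of the 12 pairs within a class, 0 did. The pairs share genes and libraries, and no share over pairs of other genes was computed. These counts are therefore a description and add no support to the balance.

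Within the secondary class a ratio followed the replicate number instead of the group. The log2 ratio of Camp to Ltf was 1.36 in CD44+CD51- replicate 1 and 1.70 in CD51+ replicate 1, and between 2.68 and 2.86 in the other 4 libraries. The pair with the steadiest ratio was Elane and Ctsg, whose log2 ratio kept within a range of 0.39 over all 6 libraries. In CD51+ cells Elane and Prtn3 were steadier still, with a range of 0.04, against 0.64 in CD44+CD51- cells.

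**Figure D3:**
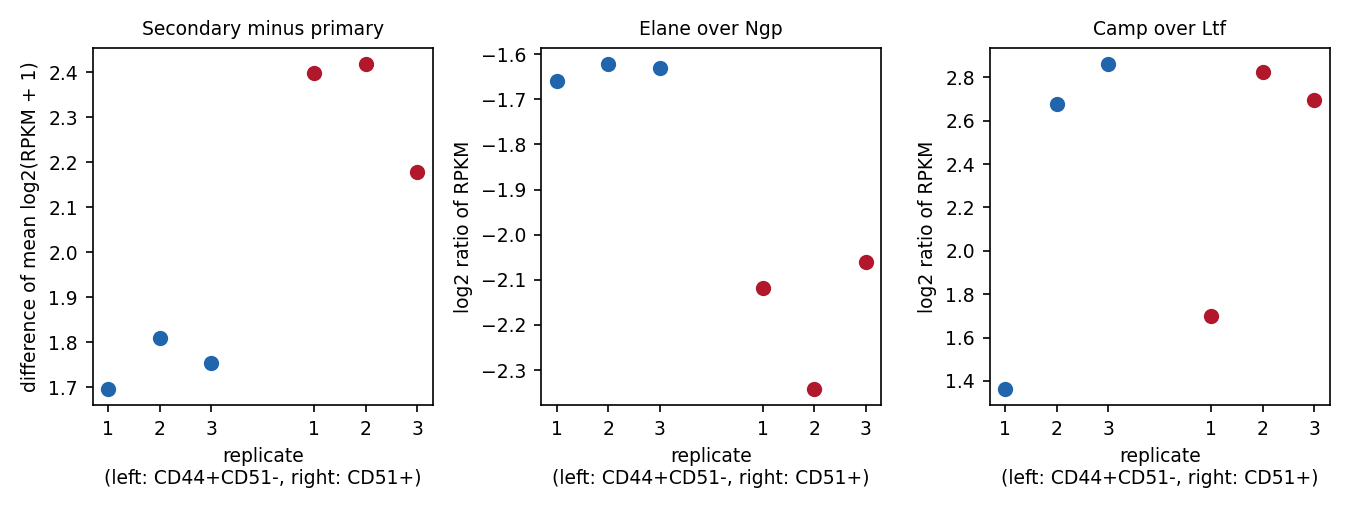
Measures within each library, with CD44+CD51- libraries in blue and CD51+ libraries in red: the mean log2 level of secondary minus primary genes, the log2 ratio of Elane to Ngp, and the log2 ratio of Camp to Ltf. The first and second part the groups (1.70 to 1.81 against 2.18 to 2.42 for the first), while Camp to Ltf is low in the libraries numbered 1 of both groups.

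CD44+CD51- replicate 2 carried more granule RNA than the rest of its group. Its RPKM was between 2.62 times (Prtn3) and 3.86 times (Camp) the mean of replicates 1 and 3, where the median over all tested genes was 1.08. Without it the CD51+ to CD44+CD51- ratio of mean RPKM went from 3.59 to 6.07 for Mpo, from 3.63 to 6.80 for Elane, from 3.84 to 5.91 for Prtn3 and from 3.52 to 6.19 for Ctsg. It went from 5.09 to 9.96 for Camp, from 5.25 to 9.76 for Ngp, from 5.48 to 8.69 for Ltf and from 5.47 to 9.03 for Lcn2. Other markers were also raised in this library. List sums of its RPKM were set against the mean of replicates 1 and 3. The ratio was 3.51 for neutrophil surface and cytosol genes, 3.91 for monocyte and macrophage markers and 6.08 for stromal markers. It was 4.06 for mast cell, basophil and eosinophil markers, 2.14 for B lineage, 1.37 for erythroid and 0.788 for early progenitor markers. A sum follows its highest genes, such as Car1 (0.987) in the erythroid and Myc (0.738) in the progenitor list. Single genes ran from 0.920 (Gata1) to 4.996 (Hbb-bs) in the erythroid list. In the progenitor list they ran from 0.518 (Angpt1) to 4.994 (Cd34, at 2.94 RPKM in replicate 2). The part of all these markers in the granule values was not tested.

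Genes of other granule and neutrophil proteins moved with the members. The lists are ordered by role and were written with earlier results of these data known. Their counts stand beside 24.1% called higher and 29.7% called lower over all genes tested. Of 6 other primary granule genes tested, 4 were higher and 0 lower, with a median log2 change of 2.15. Cd63, a membrane protein of azurophil granules and of lysosomes in many cells, went from 88.1 ± 51.2 to 1303 ± 266 RPKM. Lyz2, lysozyme of neutrophils and macrophages, went from 960 ± 631 to 5682 ± 1709, and Nucb2, a calcium-binding protein, from 2.57 ± 1.78 to 19.3 ± 3.164. Ctsc, the peptidase that activates elastase, proteinase 3 and cathepsin G, rose from 9.60 ± 2.53 to 33.2 ± 6.41 (log2 change 1.70, limma adjusted p = 0.000917). Srgn, the proteoglycan that packs granule proteases, stood at 172 ± 32.3 and 211 ± 54.8 RPKM, a difference that was not called (limma adjusted p = 0.345).

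All 15 other secondary and tertiary granule genes tested were higher, with a median log2 change of 2.42. Hp, haptoglobin, which liver and fat cells also make, had the largest change of them (4.41), from 120 ± 75.9 to 2387 ± 1006 RPKM. Chil3, a chitinase-like protein, was at 485.5 ± 421 and 2323 ± 101, Cybb, the catalytic chain of the phagocyte oxidase, at 21.0 ± 15.7 and 114 ± 13.4, and Olfm4, a granule glycoprotein of a subset of neutrophils, at 3.497 ± 4.31 and 19.7 ± 2.78. Of granule protease inhibitors 6 of 6 tested were higher, out of 10 listed. The count leaves out Stfa2, Stfa3 and BC100530, which were low in both groups, and Serpina1a, which had no entry. Serpinb1a, an inhibitor of elastase, proteinase 3 and cathepsin G, rose from 58.7 ± 44.02 to 263 ± 50.3 (log2 change 2.38, limma adjusted p = 0.00557) and Slpi, a secreted elastase inhibitor, from 23.4 ± 11.2 to 117 ± 31.6. Serpina3g rose from 1.67 ± 0.623 to 81.3 ± 38.5, and Stfa1, of a family of near-identical genes whose reads may be split among them, from 1.13 ± 0.892 to 10.2 ± 6.57.

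Of 11 transcription factor genes of granulocytes, 8 were higher and 2 lower. With the replicate block Klf5 was called higher as well (limma adjusted p = 0.0122, against 0.0722 without the block). Cebpe, the regulator of secondary granule genes, was at 10.1, 40.2 and 9.98 RPKM in CD44+CD51- cells and 94.7, 90.4 and 99.4 in CD51+ cells, with replicate 2 again the highest of its group and no overlap (log2 change 2.48, limma adjusted p = 0.00537). Cebpa, which fat precursors also use, rose from 1.87 ± 0.960 to 30.9 ± 10.05, Cebpd from 24.6 ± 12.6 to 202 ± 54.7 and Cebpb from 29.98 ± 16.5 to 204 ± 166. Lef1, a Wnt pathway factor that early lymphoid cells also use, fell from 3.52 ± 0.519 to 0.673 ± 0.227 (limma adjusted p = 0.000531). Myb, which acts in immature blood cells and on the primary granule genes, was at 59.1 ± 15.7 and 26.2 ± 12.3 RPKM (log2 change -1.23, limma adjusted p = 0.0384). Myb was not called when CD44+CD51- replicate 2 (adjusted p = 0.0986) or 3 (0.112) was left out, when CD51+ replicate 2 was (0.0539), with no filter (0.0691) and under quantile normalization (0.0596), in a range of 0.00048 to 0.112.

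Of 18 neutrophil surface and cytosol genes, 16 were higher and 0 lower, with a median log2 change of 2.05. Neutrophil markers were present in both groups, with Ly6g at 11.0, 32.9 and 11.9 RPKM in CD44+CD51- cells and 128, 108 and 107 in CD51+ cells. Retnlg, a resistin-like secreted protein of mature neutrophils, rose from 63.6 ± 25.4 to 481 ± 75.3 (log2 change 2.95), and Anxa1, a lipid-binding protein, from 88.7 ± 77.3 to 478.5 ± 115. S100a8 and S100a9, the chains of calprotectin, were at 4674 ± 3773 and 4522 ± 3762 RPKM in CD44+CD51- cells, and their CD51+ levels were 32112 ± 2072 and 26870.0 ± 624, above every granule gene. Their calls (limma adjusted p = 0.00765 and 0.0105) were lost with no filter on low values (0.0824 and 0.0867) and under quantile normalization (0.0818 and 0.108), and that of S100a9 also without CD44+CD51- replicate 3 (0.0509). Over all alternatives the adjusted p ran from 0.00162 to 0.0824 for S100a8 and from 0.00194 to 0.108 for S100a9. Leaving out CD44+CD51- replicate 2 shifted that mean over 1.5 times in 25 of the 51 genes called in these 5 lists, to 2542 for S100a8, 596 for Lyz2, 243.0 for Chil3 and 10.05 for Cebpe. Other single libraries did so for 2 of them, with the CD44+CD51- mean of Stfa1 at 0.643 without replicate 3 and the CD51+ mean of Cebpb at 108 without replicate 1.

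**Figure D4:**
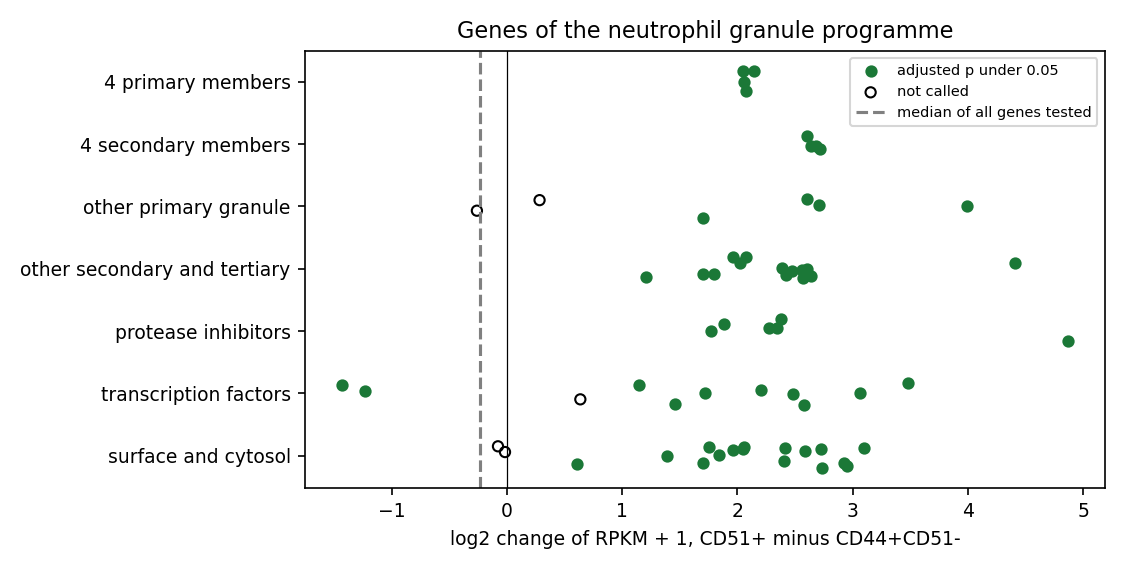
Log2 change of RPKM + 1, CD51+ minus CD44+CD51-, for each tested gene of the 7 lists, filled where the adjusted p was under 0.05 and open where not, with a dashed line at the median of all genes tested. The primary and secondary members form tight groups near 2.05 to 2.15 and 2.61 to 2.71, while the other lists spread more widely and 2 transcription factors lie below 0.

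Markers of other cell types moved in both directions. The counts stand beside 24.1% called higher and 29.7% called lower over all genes tested, and some lists lie near these shares. All 15 monocyte and macrophage markers tested were higher, 1 of which, Vcam1, stromal cells also make. Their summed RPKM was 49.3 to 241 in CD44+CD51- libraries and 777 to 873 in CD51+ libraries, and none was at 0 in all libraries. Of mast cell, basophil and eosinophil markers 5 of 10 tested were higher and 1 lower, with a summed RPKM of 19.0 to 80.7 and 104 to 1100. Among them Fcer1a was at 0 in the libraries numbered 1 of both groups, and with the replicate block Fcer1a (limma adjusted p = 0.04) and Cpa3 (0.00702) were called higher too. All 8 stromal markers were higher, with a summed RPKM of 16.6 to 113 in CD44+CD51- libraries and 19579 to 27045 in CD51+ libraries. Of 7 B lineage markers tested, 6 were lower and 0 higher, with a median log2 change of -1.957 and a summed RPKM of 250.2 to 745 in CD44+CD51- libraries and 63.2 to 117 in CD51+ libraries. Of 8 erythroid markers 5 were lower and 2, the globin genes Hbb-bs and Hba-a1, higher, with a median of -1.19 and a summed RPKM of 6580.3 to 9224 and 6458.5 to 9873. The call of Hba-a1 (limma adjusted p = 0.0408) was lost without any 1 library other than CD44+CD51- replicate 2, with no filter and under quantile normalization, in a range of 0.00553 to 0.118. Of 7 early progenitor markers tested, 3 were lower and 1 higher, with a median of 0.19 and a summed RPKM of 307.5 to 436 and 149 to 176. With the replicate block Ebf1 (limma adjusted p = 0.00619), of the B lineage list, and Cd34 (0.0273) and Sox4 (0.0197), of the progenitor list, were called higher. Ptprc, which encodes CD45 and is the gate antigen of white blood cells, was at 2.43, 4.73 and 2.60 RPKM in CD44+CD51- libraries and 6.69, 6.34 and 7.59 in CD51+ libraries (log2 change 0.93), with replicate 2 the highest of its group. The part of these cells in the granule results was not tested.

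The genes most like the classes were found by Pearson correlation of log2(RPKM + 1) over the 6 libraries, among 5624 tested genes with a mean RPKM of at least 10. For the mean of the primary genes they were Trem3 (r = 0.9988), Ncoa4, Hk3, Arhgdib and Pglyrp1, and for the mean of the secondary genes Mcemp1 (r = 0.9999), I830127L07Rik, Cybb, Selplg and Clec5a. Pglyrp1, although like the primary mean, is of the list of other secondary and tertiary granule genes, as is Cybb. Trem3 was at 16.6, 61.6 and 20.97 RPKM in CD44+CD51- cells and 141, 131 and 158 in CD51+ cells. Mcemp1 was at 5.79, 22.0 and 7.65 and at 62.3, 56.2 and 60.4. All 6 points fall into 2 groups with CD44+CD51- replicate 2 between, so the correlations describe likeness only. They take no account of the size of a change. The log2 change was 0.81 for Ncoa4 and 0.59 for Selplg, against 1.74 to 2.60 for the others.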

How the data were processed

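RNA of 6 sorted marrow samples was analysed from the deposited table of RPKM values, which the authors computed, 1 column per sample, per the file headers. The submitters' processing notes name GRCm38 and edgeR 3.16.5. Aligner, counter and annotation version are not given in the sources used here. RNA was purified with a micro column kit and libraries were made with Nextera XT, per the labels' protocols.

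Depth was estimated from the steps of low RPKM values with GENCODE M21 exon lengths. Between 89.01% and 91.06% of values of up to 20 reads per library came out whole within 0.05 read. The library size behind the RPKM was 12195773 to 32488606 reads. Estimated reads served only to gauge counting error.

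Genes with RPKM of at least 1 in at least 3 of 6 samples were tested as log2(RPKM + 1) with limma 3.58.1 in R 4.3.3 (intensity trend, two-sided, Benjamini-Hochberg over all 11741 genes, threshold 0.05), after a test on simulated data. The pseudocount of 1 makes changes of low genes smaller. TMM was computed on RPKM without weights. The same-numbered libraries of the 2 groups deviated together from their group means (correlations across genes of 0.619, 0.286 and 0.516, each above 0.1; those of other pairs ran from -0.583 to 0.324, the highest being CD44+CD51- replicate 3 with CD51+ replicate 2), so the numbers from the titles were taken to pair the samples. For CD51+ replicate 2 the same-numbered library was not the most alike (0.286 against 0.324). Deviations within a group cancel out, so the correlations depend on each other. Numbers 2 and 3 swapped would also pass 0.1 (0.324 and 0.198), so the rule cannot show which of these libraries pair. The main fit, which gave each p not named otherwise, did not use the pairing by number. A fit with the replicate block was an alternative. It called 8119 genes in place of 6309 and changed no call of the 8 genes. Named genes were the 8 members, the 4 of largest absolute change in each list with all that fell, and the 5 of most like pattern per class. Srgn, Ly6g, Ptprc, genes beside the members, genes called only with the replicate block and the genes of other cell types were added after their values were seen. Other alternatives were another pseudocount, filter, scaling or variance model and leaving out each library. The members and lists were chosen with earlier results of these data known, and 1 gene of the list of other primary granule genes is not reported here. Promoter sequences are from RefSeq, GRCm38.p6.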

Additional observations from a re-analysis of the deposited data

How the results depend on the processing

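All 8 granule genes kept their direction under the 13 alternatives, and 5 of them, Mpo, Prtn3, Ctsg, Ltf and Lcn2, kept their call in each. Under quantile normalization the log2 changes of Camp (1.82) and Ngp (1.54) no longer passed the test, and the secondary minus primary difference between groups fell to 0.028. That method replaces each value by the value of its rank. Leaving out 1 library at a time, the log2 change of Elane ranged between 1.71 and 2.77 and missed the threshold when CD44+CD51- replicate 3 was omitted, while the secondary minus primary difference ran from 0.535 to 0.655. The count of transcription factor genes called lower was 1 with no filter, with a filter of RPKM 5 and under quantile normalization, and 1 to 2 when a library was left out. The replicate block, with libraries paired by number, called 8119 genes in place of 6309, with the adjusted p of Elane at 0.00385, and changed no call of a granule gene. In the lists it ended 0 calls and added Klf5, Cpa3, Fcer1a, Cd34, Sox4 and Ebf1. Over all genes, TMM moved the median log2 change by 0.11 and quantile normalization by -0.11. Of 51 genes called in the 5 related lists, 43 kept their call in every alternative that tested them. Those that did not were Fcnb, Gfi1, Runx1, Myb, Cxcr4, S100a8, S100a9 and Il1b. With 3 libraries per group the spread between libraries, not the read depth, limits these values.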

Other observations

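The eosinophil granule genes Prg2 and Epx had another pattern across libraries than the neutrophil granule genes, while Ear2 did not overlap between groups, as the neutrophil genes did not. Prg2, which encodes major basic protein, was at 0.233, 26.9 and 0.309 RPKM in CD44+CD51- replicates 1, 2 and 3 and at 0.293, 17.4 and 532.5 in the CD51+ replicates. Epx, the eosinophil relative of Mpo, was at 0.0357, 0.157 and 0 in the CD44+CD51- libraries, and its CD51+ values were 0.02995, 0.303 and 48.5. CD51+ replicate 3 thus held nearly all of both, while its Mpo, at 1076 RPKM, lay between those of the other CD51+ libraries. Prg2 did not pass the test (log2 change 2.71, limma adjusted p = 0.329), and Epx was below the filter. Ear2, an eosinophil ribonuclease of a family of near-identical genes whose reads may be split among them, was at 0.816, 12.1 and 2.445 in the CD44+CD51- libraries and 17.3, 25.8 and 88.5 in the CD51+ libraries (log2 change 3.02, limma adjusted p = 0.0195), and its call was lost without replicate 3 of CD44+CD51- (0.0601) or of CD51+ (0.0597), in a range of 0.0026 to 0.0601. The basophil protease gene Prss34 was at 35.3, 86.7 and 212.7 in the CD51+ libraries and at most 8.81 in the others.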
